A study of Mus musculus with 8 samples.

Results

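Neutrophils and other phagocytes read their surroundings through G protein-coupled receptors for chemokines, bacterial peptides, complement fragments and lipids. The set considered here holds 7 of these receptors. Cxcr2 and Cxcr4 encode the chemokine receptors for release from and retention in bone marrow. Fpr1 and Fpr2 encode formyl peptide receptors, C5ar1 the receptor for complement C5a, Ltb4r1 the high-affinity receptor for leukotriene B4, and Ptafr the receptor for platelet-activating factor. All array probe sets annotated to these genes were taken, which gave 8 of the 45037 probe sets tested and covered 6 of the 7 genes. C5ar1 and Ptafr had 2 probe sets each and the other 4 genes had 1 each. The annotation used paired no probe set with Fpr1, which was not analysed here.

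In marrow, the ligand of Cxcr4, Cxcl12, is made by stromal cells and holds neutrophils and their precursors in place, while ligands of Cxcr2 draw mature neutrophils towards the blood. Granulocytes lose Cxcr4 and gain Cxcr2 as they mature, and the cytokine G-CSF, acting through Csf3r, tips this balance towards release. The remaining receptors guide cells that have left the marrow: formyl peptides, C5a and leukotriene B4 steer neutrophils to sites of infection, and platelet-activating factor primes them. All of these receptors are also found on other cells, Cxcr4 on B cell precursors and C5ar1 on monocytes and macrophages among them.

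Expression was measured on Affymetrix mouse arrays in cells from mouse bone marrow sorted for the integrin subunit Cd11b (Itgam), which granulocytes and monocytes carry. The 4 control samples had the genotype E2F1-/-2+/+3f/f and the 4 experimental samples Mxcre;E2F1-/-2-/-3f/f, and the mice were 8 weeks old with FVB and C57BL6 ancestry. By genotype, E2F1 was null and E2F3 floxed in both groups, and both were given pIpC (5 injections of 250 µg each), a synthetic double-stranded RNA that induces interferon, with tissue taken 24 h after the last. By genotype, the experimental samples alone lacked E2F2 and carried Cre, driven by the interferon-responsive Mx promoter and so not restricted to myeloid cells. Effects of Cre itself and of the E2F genotype cannot be told apart in this design. The labels do not say whether each sample was a separate animal or a pool, so p-values cover only the spread among these 8 arrays, part of which may be technical. The question addressed is what the added targeting of E2f2 and E2f3 does to receptor expression on an E2f1-null background.

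Values are log2 expression after RMA, the submitters' normalization, and array medians lay between 5.01 and 5.04. Both probe sets of E2f2 separated the groups, with all experimental arrays below all controls, by 0.66 and 0.55 on average, the first of these past the threshold. The probe sets of E2f2 still read 7.26 and 9.31 in experimental samples, above the array medians. Of 3 probe sets of E2f1, 2 were above the array medians in both groups, at 6.86 and 6.57 in controls and 7.44 and 7.05 in experimental samples, and none of the 3 passed. The 2 probe sets of E2f3 were not lower (differences of 0.29 and 0.11, the first with all experimental arrays above all controls and neither past the threshold). Whether the probe sets of these genes lie in the deleted exons was not analysed here, so they do not check the genotypes. The sort marker Itgam read 11.58 in controls and 11.54 in experimental samples. The neutrophil genes S100a8, S100a9, Camp, Ltf, Ngp and Lcn2 read 14.2 to 14.5, near the highest values of the arrays. Markers of monocytes, T and NK cells and red cell precursors were also above the array medians. For beta-actin, the 3′ signal minus the 5′ signal, which grows as RNA is degraded, was 0.27 to 0.32 in controls and 0.34 to 0.54 in experimental arrays on the log2 scale. For Gapdh the same measure overlapped between the groups, at -0.14 to -0.09 in controls and -0.16 to 0.03 in experimental arrays. The part of RNA quality in the results below was not tested. Sample codes in the labels began with a digit for replicates 1 and 2 and with a letter for replicates 3 and 4 of both groups. The labels do not explain the codes, and differences are also stated within each code style, with 2 arrays per group and no test.

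Promoters of 3 of the receptors are shown because the groups differed most, in size or in separation of the arrays, at Cxcr2, Cxcr4 and C5ar1 among the receptors above the median level. Each sequence holds the 250 bases before the transcription start, 5′ to 3′ on the strand of the gene, from RefSeq on GRCm38.p6. Cxcr2 lies at chr1:74153744-74153993 on the plus strand, Cxcr4 at chr1:128592300-128592549 on the minus strand and C5ar1 at chr7:16259339-16259588 on the minus strand. Capitals mark matches, on either strand, to 4 short motifs: TTTNNCGC for E2F, GAAANNGAA for interferon response, TTNCNNAA for C/EBP and GAGGAAG for ETS factors such as PU.1.
Cxcr2: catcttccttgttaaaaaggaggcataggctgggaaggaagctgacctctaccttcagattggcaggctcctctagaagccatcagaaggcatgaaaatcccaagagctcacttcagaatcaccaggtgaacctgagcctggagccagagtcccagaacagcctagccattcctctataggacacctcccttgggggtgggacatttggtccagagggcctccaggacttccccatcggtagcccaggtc
Cxcr4: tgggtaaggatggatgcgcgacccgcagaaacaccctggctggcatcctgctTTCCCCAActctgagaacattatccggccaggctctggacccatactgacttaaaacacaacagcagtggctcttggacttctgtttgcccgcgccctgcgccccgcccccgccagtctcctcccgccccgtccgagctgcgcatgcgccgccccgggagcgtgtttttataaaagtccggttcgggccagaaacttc
C5ar1: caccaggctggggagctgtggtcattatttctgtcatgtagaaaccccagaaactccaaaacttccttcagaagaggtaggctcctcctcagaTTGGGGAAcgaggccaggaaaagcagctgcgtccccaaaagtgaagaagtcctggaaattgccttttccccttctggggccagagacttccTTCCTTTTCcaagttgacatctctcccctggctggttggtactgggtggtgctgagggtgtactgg

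The E2F motif had no match in these windows or in those of Fpr2, Ltb4r1 and Ptafr, and 4.28% of 32851 promoter windows of the same length held one. Cxcr4 had 1 C/EBP match at -198 to -191 and C5ar1 had 1 at -157 to -150, a motif found in 36.8% of windows. C5ar1 also had an interferon response match at -66 to -58, against 7.13% of windows. Ltb4r1 had an ETS match at -130 to -124 (10.6% of windows), and Fpr2 had 2 C/EBP matches. The 4 motifs had no match in the window of Cxcr2, and no 2 of the printed matches overlapped. The promoter windows also differed in base composition: that of Cxcr4 had 61.2% G and C with 19 CpG dinucleotides, while that of Cxcr2 had 54.4% with 1. A match describes letters only, and binding of any factor was not measured.

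None of the 8 receptor probe sets passed the threshold of adjusted p 0.05 in the limma fit, where 2.58% of all probe sets did. All 8 were lower on average in the experimental samples, by 0.04 to 0.68 on the log2 scale, with a median difference of -0.41 against 0.003 for all probe sets. At an unadjusted p under 0.05, 3 of the 8 were lower (Cxcr4, the brighter C5ar1 probe set and the brighter Ptafr probe set), against 9.56% of all probe sets. In 1 of the 8, Cxcr4, all experimental arrays lay below all controls, against 6.15% of all probe sets. Among the 2907 probe sets at least as bright as the dimmest receptor other than Ptafr, 10.3% were separated in this way, 54.5% had a difference below 0 and the median was -0.03. The 6 probe sets of those 5 receptors had a median of -0.41. The receptors share cells and arrays, so their common direction is not a count of independent observations.

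**Figure D1:**
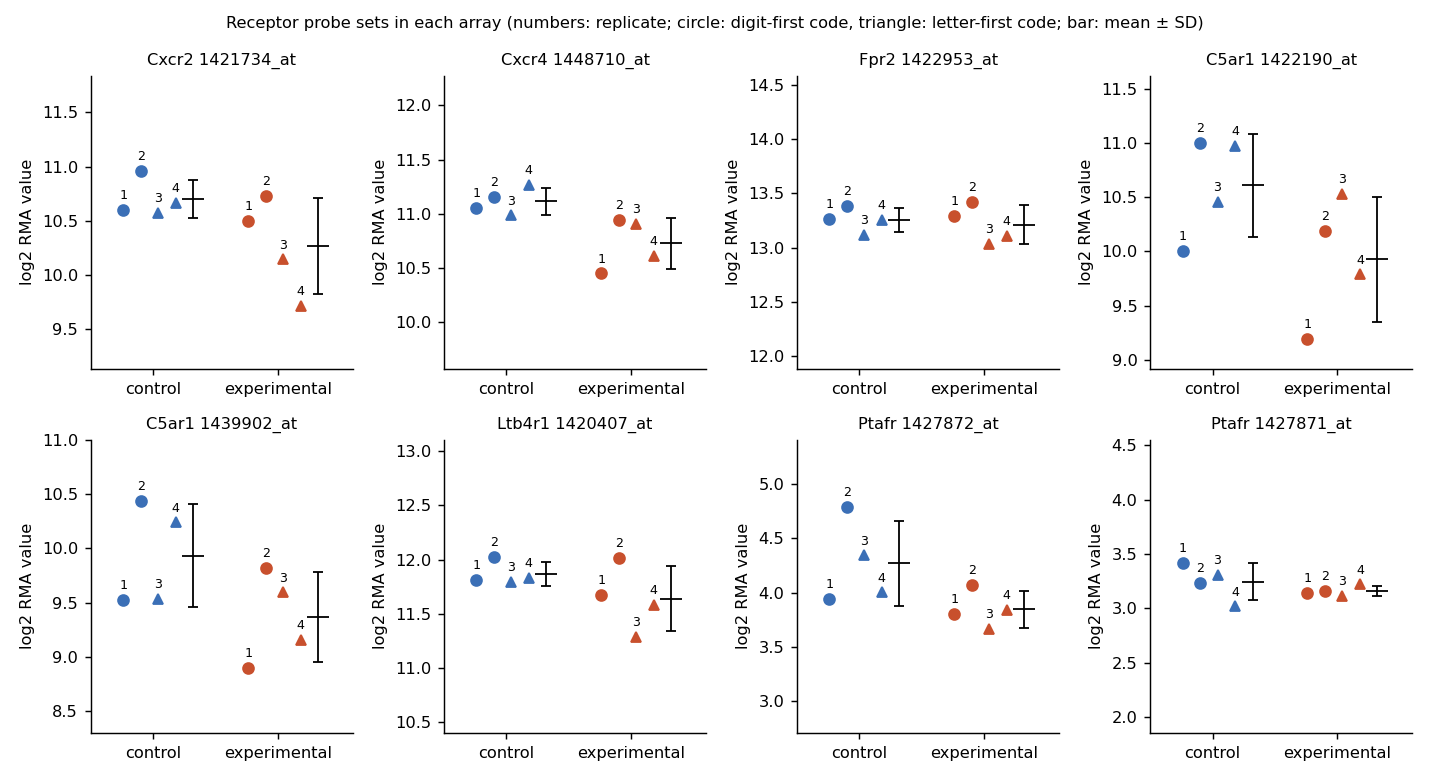
Log2 RMA value of each receptor probe set (y axis, each panel spanning the same log2 range) in the 4 control and 4 experimental arrays, numbered by replicate, with group mean ± SD beside the points. Cxcr4 is the panel in which the groups do not overlap; Fpr2 and Ltb4r1 have closely grouped controls, and both Ptafr probe sets lie below 5.

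Cxcr4, the receptor that anchors cells in marrow through Cxcl12, was the one receptor whose groups did not overlap. At probe set 1448710_at it read 11.05, 11.15, 10.99 and 11.27 in control replicates 1 to 4 and 10.45, 10.95, 10.90 and 10.61 in experimental replicates 1 to 4. Every experimental array was below the lowest control, control replicate 3, though experimental replicate 2 was so by a narrow margin. The group means were 11.11 ± 0.12 and 10.73 ± 0.24 (SD, n = 4 each), so the groups differed by -0.39 ± 0.13 (SE, limma adjusted p = 0.159), which puts the experimental level at 76.5% of control with a 95% interval of 62.6% to 93.4%. A difference of 0.58 would have been needed to pass the threshold with this error. The two-sided exact permutation p was 0.0286, the smallest that 4 arrays against 4 can give. The difference was of like size within each code style, -0.40 among replicates 1 and 2 and -0.37 among replicates 3 and 4.

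B cell precursors carry Cxcr4. All 9 measured B cell markers had a difference below 0, and 5 of them fell past the threshold, against 3.47% of all genes in either direction. The summed level of the 9 markers was 10.7 to 11.5 in controls and 9.49 to 10.1 in experimental arrays on the log2 scale, without overlap between the groups. Of the defining B cell genes, Cd79a read 7.83 in controls and 6.26 in experimental samples, Ms4a1 8.60 and 5.78, and Pax5 5.19 and 4.84, near the array median. Vpreb1, a marker of B cell precursors, read 7.63 and 7.55 (-0.08, limma adjusted p = 0.954), with 0.31 and -0.48 within the code styles. Ebf1 (-1.29, adjusted p = 0.0804) and Blnk (-1.45, adjusted p = 0.019) were lower in every experimental array. The list was not split into precursors and later B cells, so a change of precursors alone was not measured. The part of B cells in the lower Cxcr4 value was not tested. In bulk samples, fewer cells of a type and less RNA per cell cannot be told apart.

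Cxcr2, the receptor for the chemokines that draw mature neutrophils out of marrow, was also lower on average but overlapped between groups. At 1421734_at it read 10.60, 10.96, 10.57 and 10.66 in control replicates 1 to 4 and 10.50, 10.73, 10.15 and 9.72 in experimental replicates 1 to 4. Experimental replicates 1, 3 and 4 were below all controls, and experimental replicate 2 was above 3 of the 4. The means were 10.70 ± 0.18 and 10.27 ± 0.44 (SD, n = 4 each), so the groups differed by -0.43 ± 0.20 (SE, adjusted p = 0.319; two-sided exact permutation p = 0.143). The experimental level was 74.3% of control, with a 95% interval of 54.4% to 101.6%. In all 4 pairs of same-numbered arrays the experimental one was lower, as for Cxcr4, Ltb4r1 and the brighter Ptafr probe set. The experimental array was lower in 3 pairs for both C5ar1 probe sets and the dimmer Ptafr one, and in 2 for Fpr2. No share of all probe sets is given beside these counts, and a pairing of the arrays is not settled. By code style, Cxcr2 differed by -0.17 for replicates 1 and 2 and by -0.69 for replicates 3 and 4, and the test of the difference between these did not pass (interaction of group and code style, limma adjusted p = 0.665).

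All 12 measured mature neutrophil markers had a difference below 0 beside Cxcr2, with a median of -0.11. Past the threshold, where 3.47% of all genes lay in either direction, 3 of them fell. These were Clec4d, a C-type lectin (-1.71, limma adjusted p = 0.00176), Il1b, a cytokine (-1.53, adjusted p = 0.0137), and Csf3r (-0.65, adjusted p = 0.00943). Their summed level was 17.27 to 17.36 in controls and 17.12 to 17.29 in experimental arrays. That sum is carried by S100a8, S100a9, Camp, Ltf, Ngp and Lcn2, near the highest values of the arrays (14.36 to 14.54). Its size therefore cannot be set against that of Cxcr2. Promyelocyte markers had a median difference of 0.48, with Ms4a3 alone of 6 past the threshold (0.83), and a summed level of 14.05 to 15.17 in controls and 14.63 to 15.34 in experimental arrays. The part of either population in the receptor values was not tested.

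Set against each other, the release and retention receptors were lower by like amounts, and a shift between them was not detected. The log2 value of Cxcr2 minus that of Cxcr4 was -0.45, -0.19, -0.41 and -0.60 in control replicates 1 to 4 and 0.05, -0.22, -0.76 and -0.89 in experimental replicates 1 to 4. The controls lay inside the range of the experimental arrays, 2 of which were below and 1 above all controls. The means were -0.41 ± 0.17 and -0.45 ± 0.44 (SD, n = 4 each), a difference of -0.04 with a two-sided exact permutation p of 0.857. The 95% interval, from the shifts that the same exact test does not refuse, ran from -0.70 to 0.65. A change in the balance of any size in this range, in either direction, remains compatible with these 4 arrays per group. Within replicates 1 and 2 the difference was 0.24 and within replicates 3 and 4 it was -0.32, opposite in sign. The absolute value of this ratio carries no meaning, because the 2 probe sets bind with different strength; its change between groups does.

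**Figure D2:**
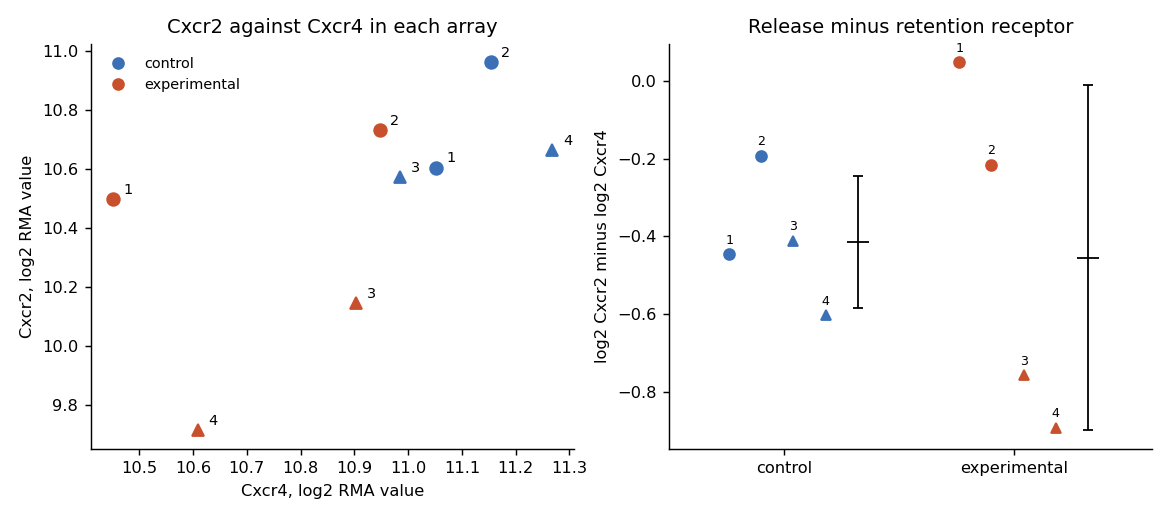
Left, log2 RMA value of Cxcr2 (y axis) against Cxcr4 (x axis) in each array, coloured by group, with replicate numbers and with circles for codes that begin with a digit and triangles for codes that begin with a letter. Right, log2 Cxcr2 minus log2 Cxcr4 in each array with group mean ± SD; the experimental arrays spread from -0.89 to 0.05 around the controls, which run from -0.60 to -0.19.

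C5ar1, the receptor for the complement fragment C5a, had the largest average difference and also the largest spread. Its brighter probe set 1422190_at read 10.003, 11.004, 10.46 and 10.98 in control replicates 1 to 4 and 9.20, 10.19, 10.53 and 9.79 in experimental replicates 1 to 4. Experimental replicate 1 was lowest and experimental replicate 3 lay above 2 of the 4 controls. The means of 10.61 ± 0.48 and 9.93 ± 0.57 (SD, n = 4 each) differed by -0.68 ± 0.30 (SE, adjusted p = 0.289; two-sided exact permutation p = 0.143), or 62.2% of control with a 95% interval of 38.9% to 99.5%.

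The second C5ar1 probe set, 1439902_at, read 9.52, 10.44, 9.53 and 10.24 in controls and 8.90, 9.82, 9.59 and 9.16 in experimental samples. It ordered the arrays much like the first, with the same lowest array in each group. Its difference was -0.57 ± 0.26 (SE, adjusted p = 0.304), so the probe sets gave like differences and neither passed. Within the code styles the brighter probe set differed by -0.81 and -0.56 and the dimmer one by -0.62 and -0.51.

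Monocytes carry C5ar1 as well. In either direction, 3 of 9 measured monocyte markers had an unadjusted limma p under 0.05, with no matching share of all probe sets given. None of the 9 passed the threshold. Their summed level was 13.5 to 13.8 in controls and 12.7 to 14.2 in experimental arrays, lower by 0.56 within replicates 1 and 2 and higher by 0.36 within replicates 3 and 4. The members went both ways, from -1.23 for Cx3cr1 and -0.64 for Csf1r to 0.44 for Fcgr4, and the part of monocytes in the C5ar1 value was not tested. The macrophage markers, with none of 10 past the threshold and 0 at an unadjusted limma p under 0.05, had summed differences of like sign, with -0.57 and 0.35.

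**Figure D3:**
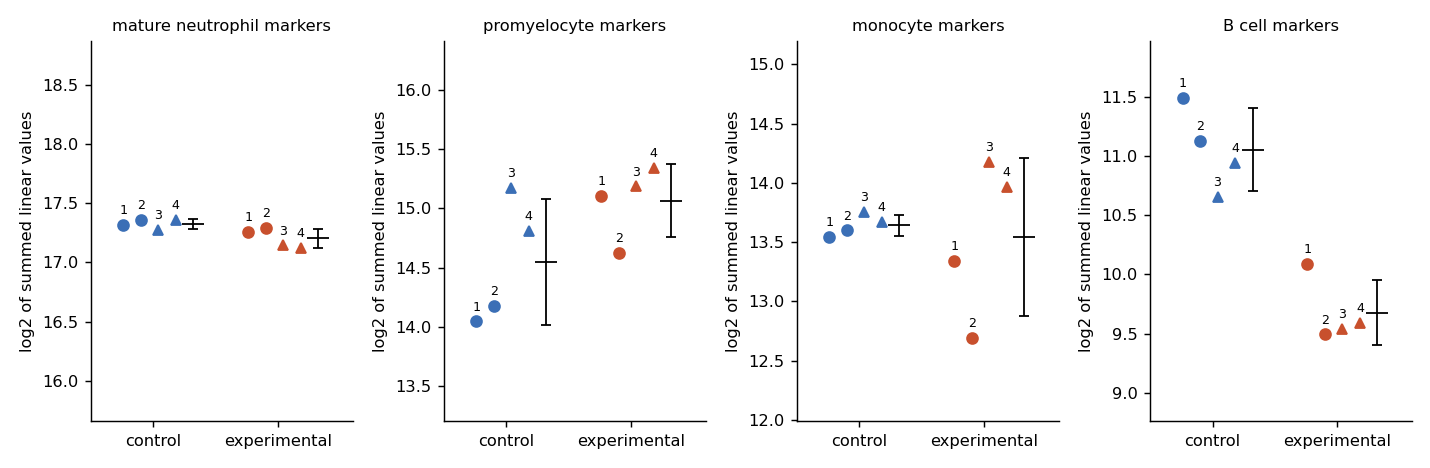
Log2 of the summed linear values of the measured markers of mature neutrophils, promyelocytes, monocytes and B cells (y axis, each panel spanning the same log2 range) in each control and experimental array, with group mean ± SD. B cell markers separate the groups, whereas the other 3 lists overlap, and the experimental arrays spread widely for monocyte markers.

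Fpr2, a receptor for formyl peptides and for Anxa1, was bright and close to level between the groups. At 1422953_at it read 13.26, 13.38, 13.12 and 13.26 in controls and 13.29, 13.42, 13.03 and 13.11 in experimental samples. The group ranges overlapped almost fully, and replicate 2 was highest in both. The means of 13.25 ± 0.11 and 13.21 ± 0.18 (SD, n = 4 each) differed by -0.04 ± 0.11 (SE, adjusted p = 0.894), which is 97.2% of control with a 95% interval of 81.9% to 115.4%. Its level was at percentile 99.8 of all probe sets.

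Ltb4r1, the leukotriene B4 receptor, was lower by a small amount in the experimental samples. At 1420407_at it read 11.81, 12.03, 11.80 and 11.83 in controls and 11.67, 12.02, 11.29 and 11.59 in experimental samples. Experimental replicates 1, 3 and 4 were below all controls while experimental replicate 2 was nearly level with the highest control, which was also a replicate 2. The means were 11.87 ± 0.11 and 11.64 ± 0.30 (SD, n = 4 each), so the groups differed by -0.23 ± 0.15 (SE, adjusted p = 0.480; two-sided exact permutation p = 0.200). The experimental level was 85.6% of control, with a 95% interval of 68.2% to 107.3%, and each same-numbered pair had the experimental array lower. As for Cxcr2, the difference was smaller within replicates 1 and 2 (-0.07) than within replicates 3 and 4 (-0.38), without a significant interaction (adjusted p = 0.780).

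Ptafr, the receptor for platelet-activating factor, was dim. Probe set 1427872_at read 3.94, 4.79, 4.34 and 4.001 in controls and 3.81, 4.07, 3.67 and 3.84 in experimental samples, at percentile 35 of all probe sets. The groups overlapped through experimental replicate 2, and the difference of -0.42 ± 0.18 (SE) did not pass (adjusted p = 0.278; two-sided exact permutation p = 0.0857). Probe set 1427871_at read 3.02 to 3.42 in controls and 3.11 to 3.22 in experimental samples, a difference of -0.09 ± 0.10 (SE, adjusted p = 0.729). Both probe sets lay below the array medians of 5.01 to 5.04, and the deposited values carry no detection call, so whether Ptafr was above background in either group was not settled. Ptafr and E2f2 lie on the same chromosome, 4, with 75 measured genes between them in the gene order of GRCm38.p6, of which 12 passed the threshold (5 higher and 7 lower). That is 16% of them, against 3.47% of all genes by their brightest probe set.

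**Figure D4:**
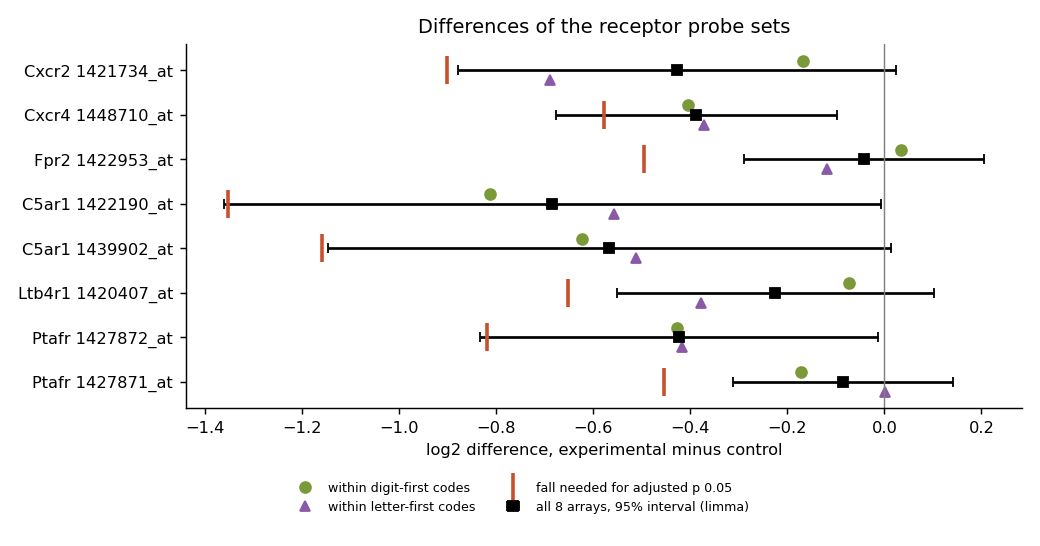
Log2 difference, experimental minus control (x axis), for each receptor probe set: squares with bars are the estimate over all 8 arrays with its 95% interval, circles and triangles the values within each code style, and vertical ticks the fall that the test needed. No square reaches its tick, and the widest intervals belong to C5ar1.

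In controls, replicate 2 was the highest array for 6 of the 8 probe sets. In experimental samples replicate 2 was again the highest for 6 of 8. How often replicate 2 was highest over all probe sets is not given here, so this is not shown to be particular to the receptors. The lowest experimental array differed by receptor: replicate 1 for Cxcr4 and both probe sets of C5ar1, replicate 4 for Cxcr2, and replicate 3 for Fpr2, Ltb4r1 and both probe sets of Ptafr. Over the 8 arrays the genes most like Cxcr2 among 19392 bright probe sets of single genes were Gid8 (Pearson r = 0.982), Rlf (0.981) and Nadk (0.981), and those most like Cxcr4 were Cul3 (0.989), Zmym2 (0.988) and Ube2d3 (0.984). These values describe likeness over 8 arrays that share groups, code styles and normalization, with no test, and none of the 6 genes passed the threshold itself.

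The pathway around the receptors was examined through 5 lists. Of 93 genes measured, 3 fell and none rose, against 3.47% past the threshold in either direction among all 18193 genes by their brightest probe set. The genes that fell were Csf3r, Ppbp and Ccr7, each with all experimental arrays below all controls. With replicate number as a block the count was 7, of which 5 fell and 2 rose. The same block raised the number of all 45037 probe sets past the threshold from 1162 to 2277.

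**Figure D5:**
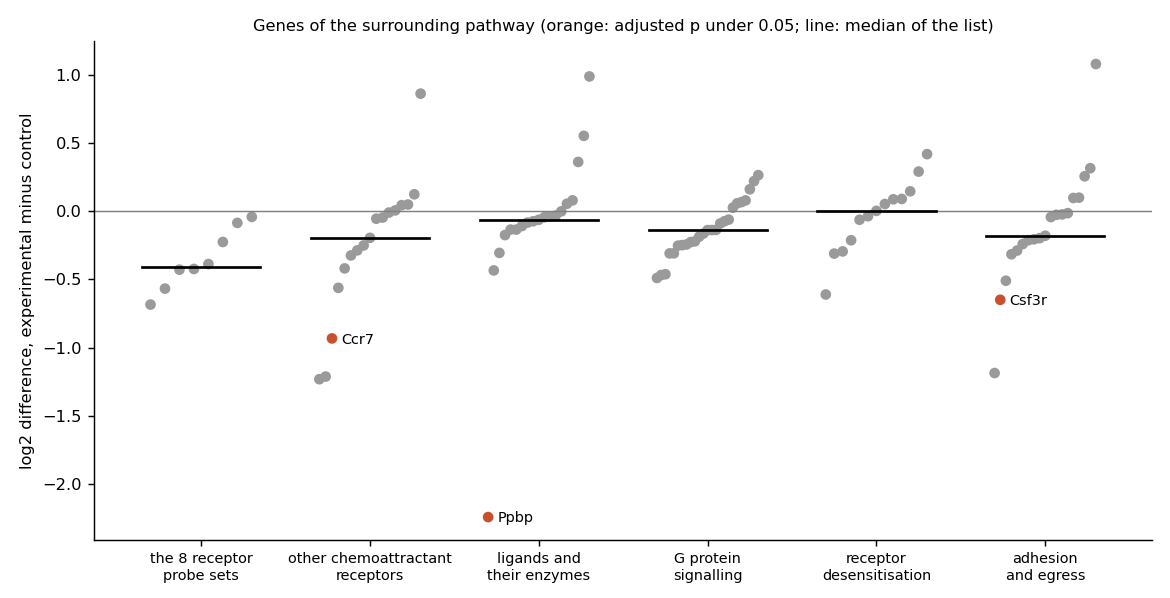
Log2 difference, experimental minus control (y axis), of the 8 receptor probe sets and of every measured gene of the 5 lists, each gene by its brightest probe set, with a line at the median of the list. Csf3r, Ppbp and Ccr7 are the genes past adjusted p 0.05, and no receptor probe set is.

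Csf3r encodes the receptor for G-CSF, the cytokine that mobilises neutrophils from marrow. At 1418806_at it read 11.75, 11.98, 12.01 and 11.92 in controls and 11.29, 11.28, 11.31 and 11.18 in experimental samples. The experimental arrays were tightly grouped and all below the controls, a fall of 0.65 ± 0.09 (SE, n = 4 per group, limma adjusted p = 0.00943). Of the other 18 measured genes of adhesion and egress none passed, among them the integrin gene Itgb2 (-0.24), the adhesion molecule Cd44 (-0.29), the integrin gene Itga4 (-1.19, adjusted p = 0.297), the protease gene Mmp9 (-0.18) and the elastase gene Elane (0.26). Ctsg, which encodes cathepsin G, a protease that can cleave Cxcl12, read 1.08 higher on average (adjusted p = 0.119) and passed with the replicate block (adjusted p = 0.0321). The list had a median of -0.18.

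Of 19 genes for ligands of the receptors and for enzymes that make or break them down, Ppbp fell. It encodes a platelet chemokine whose processed form binds Cxcr2, and at 1418480_at it read 6.15, 8.04, 6.95 and 6.998 in controls and 4.86, 4.40, 5.15 and 4.76 in experimental samples. The fall was 2.24 ± 0.34 (SE, adjusted p = 0.0117). Megakaryocyte markers moved beside it: of 7, 6 had a difference below 0 and 3 of these fell past the threshold, against 3.47% of all genes in either direction. Their summed levels were 9.17 to 9.48 in controls and 8.58 to 8.77 in experimental arrays. The part of megakaryocytes in the Ppbp value was not tested. The Cxcr4 ligand Cxcl12 was at 6.32 and 6.02 (-0.31 ± 0.60), and the Cxcr2 ligands Cxcl1 (-0.07) and Cxcl2 (-0.13) did not pass. Nor did Alox5 (0.06), Alox5ap (-0.17) and Lta4h (-0.04), which make leukotriene B4, or Anxa1 (-0.08), a ligand of Fpr2. Hc, the gene of complement C5, read 0.55 higher on average (limma adjusted p = 0.132) and the phospholipase gene Pla2g4a 0.36 higher (adjusted p = 0.207). Of the 19 genes, 14 had a difference below 0. Mif, a cytokine that can bind both Cxcr2 and Cxcr4, read 0.99 higher on average (adjusted p = 0.233) and passed with the replicate block (adjusted p = 0.0492).

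On the list of other chemoattractant receptors, with 17 measured, Ccr7 fell. Ccr7 guides dendritic cells and lymphocytes to lymph nodes. It read 5.15, 5.76, 5.20 and 5.35 in controls and 4.70, 4.34, 4.40 and 4.30 in experimental samples, a fall of 0.93 ± 0.15 (SE, adjusted p = 0.0151) near the median level of the arrays. Without control replicate 4 it missed the threshold (adjusted p = 0.0505). B cell markers, described above, were lower in the same samples. Of 9 dendritic cell markers, 7 had a difference below 0 and 3 of these fell past the threshold, against 3.47% of all genes in either direction. Among those that fell was Ccr9, a chemokine receptor kept outside the receptor list (-1.24, limma adjusted p = 0.0239). The summed dendritic cell level was 10.1 to 10.4 in controls and 9.04 to 10.2 in experimental arrays. Cxcr5, a B cell homing receptor (-1.21, adjusted p = 0.0911), Cx3cr1, a receptor of monocytes (-1.23, adjusted p = 0.169), and Ccrl2, an atypical receptor of activated neutrophils and macrophages (-0.56, adjusted p = 0.0913), did not pass. Each was below controls in every experimental array, as were 6.15% of all probe sets. Ccrl2 passed with the replicate block (adjusted p = 0.0317). The list's median was -0.19.

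Downstream of the receptors no gene passed in the limma fit. Of 25 measured genes of G protein signalling, 18 had a difference below 0, against 49.4% of all probe sets, with a median of -0.14. In either direction, 5 of the 25 had an unadjusted p under 0.05, among them Gng12, which was higher (0.26). Of all probe sets, 9.56% were lower at that level. The share in either direction is not given here, so the count of 5 has no matching background. Rac2, the GTPase that drives actin assembly and the oxidase in neutrophils, read 13.31 in controls and 13.06 in experimental samples (-0.24 ± 0.09, adjusted p = 0.186), and Gnai2, the main inhibitory G protein subunit of chemokine signalling, 12.54 and 12.47 (-0.07 ± 0.11). Gnai3 (-0.46, adjusted p = 0.0736) and Gnaq (-0.49, adjusted p = 0.0757), both G protein subunits, were below controls in every array and did not pass. Of all probe sets, 6.15% were below controls in this way. Of 13 genes that switch receptors off, none passed and 4 had an unadjusted p under 0.05 in either direction, with a median difference of 0.003. This count of 4 also lacks a matching share of all probe sets. Arrb2, an arrestin that uncouples receptors, differed by 0.29 ± 0.11 (adjusted p = 0.209), and Rgs2, a regulator that ends G protein signals, by -0.61 ± 0.14 (adjusted p = 0.0539). Rgs2 was lower past the threshold with the replicate block (adjusted p = 0.0188) and also with quantile normalization (0.0495), both brightness filters (0.0432 and 0.04), the trended robust variance (0.0457), array weights (0.0331), code style as a block (0.00951) and without experimental replicate 2 (0.0362). Gnai3 and Gnaq passed with array weights, with code style as a block and without experimental replicate 2, at adjusted p = 0.024 to 0.0412.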

How the data were processed

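The series holds 8 arrays, 4 control and 4 experimental. The authors deposited log2 values per probe set, made with RMA per the submitters' processing notes (no version given); the set of arrays normalized jointly is not stated. Of 45101 probe sets, 64 Affymetrix controls were left out. Gene names come from GEO's platform annotation, updated by gene identifier; 34945 probe sets had 1 symbol, 932 several and 9160 none. A gene in a list is represented by its brightest probe set.

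Differences are experimental minus control, fitted with limma 3.58.1 in R 4.3.3 on all 45037 probe sets (group as the only term, eBayes defaults, Benjamini-Hochberg over all of them, threshold 0.05). The fit was also run on simulated arrays with known changes and independent noise, which leaves out the shared deviation of same-numbered arrays given below. Errors of levels are SDs over 4 arrays, and the number of arrays limits the precision. Single values were tested by a two-sided exact permutation test. Same-numbered arrays of the groups deviated together across probe sets (each of the 4 pairs correlated, at 0.20 to 0.26). Arrays of different numbers were not compared, and same-numbered arrays also share a code style, so these values do not settle a pairing. The main fit and its exact tests did not pair arrays, and the replicate number was a block among the alternatives only.

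Members and lists were chosen with earlier results of these data known. Genes named are all receptor probe sets, list members past the threshold (otherwise the 2 brightest), and the 3 genes most like Cxcr2 and Cxcr4; other list members were named after their values were seen. Motifs were chosen after the data were seen. Alternatives were other scalings, filters, variance models and blocks, and leaving out each array.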

Additional observations from a re-analysis of the deposited data

Results flagged for a closer look

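In control samples, replicate 2 stood apart for Ltb4r1 at 1420407_at: it read 12.03, and its gap to the next control was 0.844 of the range of the 4 controls, above the 95% critical value for 4 values. This was the single such value in 18 sets of 4 arrays examined (8 probe sets and the difference of Cxcr2 and Cxcr4, in each group), and chance gives about 1 in 20. Experimental replicate 2 was the highest of its group for Ltb4r1 as well. Without control replicate 2 the difference of Ltb4r1 was -0.17 (limma adjusted p = 0.717).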

How the results depend on the processing

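No receptor probe set passed in the 16 other fits, of which the brightness filters tested 6 and left out both of Ptafr, and 136 of 140 values of their differences stayed below 0. The exceptions were Fpr2, at 0.0012 without control replicate 2, 0.0191 without experimental replicate 3 and 0.0347 within digit-first codes alone (its range without 1 array was -0.11 to 0.0191), and the dimmer Ptafr probe set, at 0.00166 within letter-first codes alone. Cxcr4 had adjusted p = 0.0891 to 0.336 over its alternatives, Cxcr2 0.118 to 0.576 and the brighter C5ar1 probe set 0.0844 (replicate block) to 0.539. The difference of Cxcr2 minus Cxcr4 was -0.21 to 0.11 without 1 array, above 0 without control replicate 2 or experimental replicate 3 or 4, and 0.24 within digit-first codes alone. Its exact test with a block for the replicate number or the code style rested on 16 or 36 arrangements, too few to reach 0.05 whatever the data. Each receptor gene of this pair has 1 probe set, so other pairs of probe sets were not run.

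The number of probe sets past the threshold was 1162, 2277 with the replicate block, 2582 with code style as a block and 395 (without control replicate 2) to 1744 (without experimental replicate 2) without 1 array. Pathway genes past it were 3, 6 with array weights, 7 with the replicate block, 8 with code style as a block and 2 to 8 without 1 array, the highest without experimental replicate 2. Csf3r and Ppbp passed in every fit that tested them. The replicate block changed no call of a receptor. Median centring and quantile normalization shifted the median difference of all probe sets by 0.016 and 0.006 and turned no receptor, though Fpr2 went from -0.04 to -0.09 with quantile normalization. Signals near the top of the array range (Fpr2) and near the bottom (Ptafr) limit what could be seen.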
